A study of Homo sapiens with 2 samples.

Results

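The genes described here make, cut and bind hyaluronan: the synthases HAS1, HAS2 and HAS3, the hyaluronidases HYAL1, HYAL2 and HYAL3, the hyaluronan-degrading protein CEMIP and the receptor CD44. They were taken as every feature (1 value per transcript accession) of the value table whose RefSeq accession maps to 1 of these 8 genes. This gave 8 features of 6 genes, out of 28973 features in all. HYAL1 had 3 features, and HYAL2, HYAL3, HAS3, CEMIP and CD44 had 1 each. No array values are given for HAS1 and HAS2 because no feature was named for them. The group was chosen by the shTRPS1 minus NC differences of HYAL1 features in these same arrays, so every difference below is a description of these arrays and not a test.

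The cells were T47D, an established luminal line of human breast cancer. A lentivirus delivered either a short hairpin RNA that targets TRPS1 (shTRPS1, 1 array) or a negative control (NC, 1 array). Both groups therefore share the cell line and the viral vector, and the labels give neither the hairpin's sequence, nor the number of cultures, nor whether a clone was selected. The TRPS1 protein binds GATA sequences through a zinc finger and is known mainly as a transcriptional repressor. With 1 array a group there is no replicate check, no SD and no p-value, and precision is limited by the number of arrays.

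Hyaluronan is a long unsulfated sugar polymer of the extracellular matrix. The HAS enzymes build it at the plasma membrane from UDP-glucuronic acid and UDP-N-acetylglucosamine and push it out of the cell. HYAL2, which is anchored at the cell surface, is known to cut long chains, HYAL1 cuts them further in lysosomes, and CEMIP promotes their breakdown by another route. CD44 is the main cell surface receptor, and luminal breast cancer lines are known to carry less of it than basal lines.

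HYAL1, HYAL3 and HYAL2 lie close together on chromosome 3 and are all transcribed from the minus strand. The promoters of HYAL1 and HYAL2 are shown because these next-door coding genes gave opposite signs in the arrays and TRPS1 belongs to the GATA-binding proteins. The HYAL2 difference was small (0.17 on the log2 scale), so the signs are not read as opposite responses. Each window runs from 250 bases before to 50 bases after a start given by RefSeq (GRCh38.p14). HYAL1 lies in chr3:50303525-50303824 and HYAL2 in chr3:50322696-50322995, both printed 5′ to 3′ on the minus strand. Capitals mark a match, on either strand, to the letters GATA with A or T just before them and A or G just after them.
HYAL1: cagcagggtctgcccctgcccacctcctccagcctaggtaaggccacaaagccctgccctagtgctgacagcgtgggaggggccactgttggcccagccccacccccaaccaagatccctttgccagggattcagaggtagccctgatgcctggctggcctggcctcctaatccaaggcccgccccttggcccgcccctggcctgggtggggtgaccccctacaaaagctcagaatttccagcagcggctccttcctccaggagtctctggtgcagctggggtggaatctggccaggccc
HYAL2: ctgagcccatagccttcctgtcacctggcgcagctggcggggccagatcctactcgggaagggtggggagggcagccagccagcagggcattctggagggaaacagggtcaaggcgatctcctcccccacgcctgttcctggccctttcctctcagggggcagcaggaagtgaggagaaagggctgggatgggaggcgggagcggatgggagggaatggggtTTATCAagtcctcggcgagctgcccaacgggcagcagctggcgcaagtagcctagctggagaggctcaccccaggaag

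The HYAL2 window held 1 match, TTATCA on the printed strand, whose first base lies 28 bases before the start. The HYAL1 window held none, and neither did the windows of HYAL3 (which has 2), HAS1, HAS3, CEMIP and CD44. No window of HAS2 was searched. Over all 35116 promoter windows of the same length, 25.0% held at least 1 match, so 1 of 8 windows is a description and no sign of binding. The member windows held 63.3% (CD44) to 73.0% (CEMIP) G or C, against a median of 58.7% over all windows. No match says only that these letters are not in the window. HYAL1 has other starts that these windows do not cover.

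Signal was judged against olfactory receptor genes, which breast epithelium is not known to use. An array's background level was set at the 95th percentile over 60 such features, an intensity of 325 in the shTRPS1 array and 397 in the NC array. These 60 are the ones with a deposited value, so dimmer receptor features may be missing. The effect of this on the background levels was not tested. The median intensity over all features was 414 in the shTRPS1 array and 402 in the NC array, and no deposited value was under 50. Log2 values of all features, which are not independent replicates, gave r = 0.961 between the arrays. TRPS1 itself read 603 in the array labelled shTRPS1 and 726.5 in the NC array, a log2 difference of -0.27, so the labelled knockdown was small at this feature, and all directions below rest on that label. Luminal markers were present on both arrays: of 12 such markers 11 were above background on both. Among them GATA3 read 25544 in the shTRPS1 array and 22487 in the NC array. MUC1 was the 1 luminal marker called, higher, with 9335 in the shTRPS1 array and 3692 in the NC array. TFF1 was above background on neither array. The 5 measured markers of basal or CD44-high breast epithelium, given with CD44 below, were also above background on both arrays. Of the markers of other cells, 1 of 8 fibroblast genes was measured (COL1A1, 773 in the shTRPS1 array and 363 in the NC array). Of 5 measured leukocyte genes LCP1 alone exceeded background, with 382 in the shTRPS1 array against 94.5 in the NC array, and the endothelial gene CDH5 did not. The part of such cells in the results was not tested.

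HYAL1, the lysosomal hyaluronidase, was lower in the shTRPS1 array at all 3 of its features. Feature NM_153285 read 60.9 in the shTRPS1 array and 551 in the NC array. Feature NM_153282 read 159 in the shTRPS1 array and 499.8 in the NC array. Feature NM_033159 read 137 in the shTRPS1 array and 364 in the NC array. All shTRPS1 values lay under that array's background level, whereas in the NC array the first 2 lay above background, at 1.39 and 1.26 times the level, and the third lay just under it, at 0.916 times the level.

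Because the shTRPS1 values are dim, only a bound can be given for the size of the HYAL1 difference. With the dim value set to the background level, the shTRPS1 array had at least 1.69-fold lower NM_153285 and at least 1.54-fold lower NM_153282. These bounds hold only for the 95th percentile levels, which differ between the arrays (325 in shTRPS1, 397 in NC). With the 99th percentile, 562 in the NC array, both NC values lie under background and no bound can be given. No fold is given for NM_033159, which was above background on neither array. The measured log2 differences, shTRPS1 minus NC, were -3.18 for NM_153285, -1.65 for NM_153282 and -1.41 for NM_033159. These differences are set against shTRPS1 values under background, so their sizes are not established. Probe sequences were not used here, so it is unknown whether the 3 features read shared or separate exons.

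**Figure D1:**
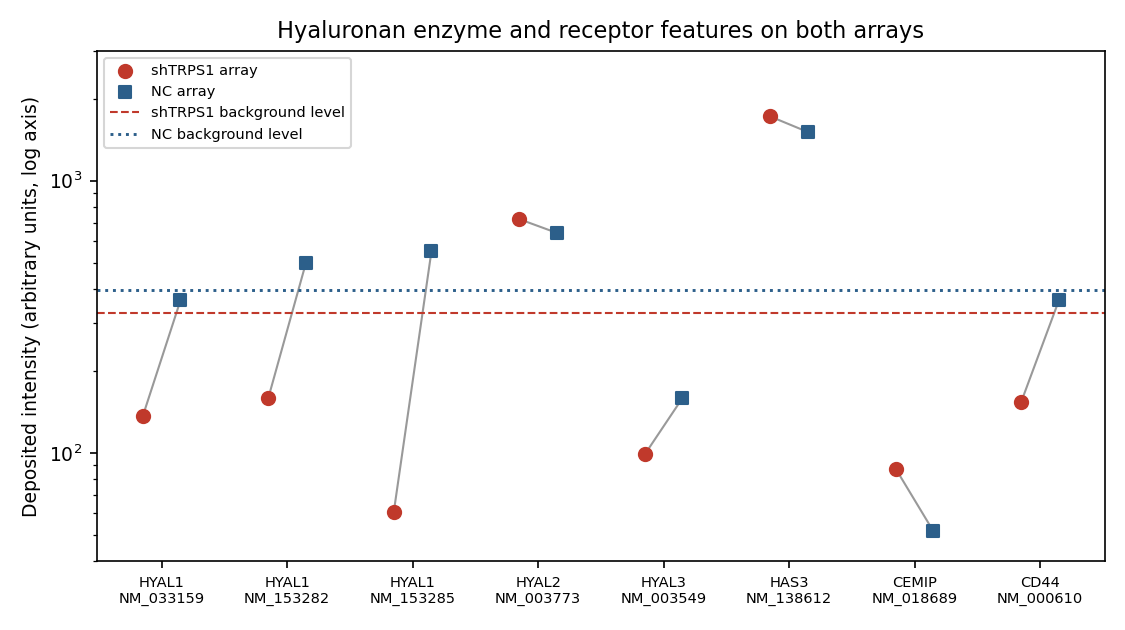
Deposited intensity (arbitrary units, log axis) of each of the 8 features on the shTRPS1 array (red circles) and the NC array (blue squares), with the background level of each array as a horizontal line. The 3 HYAL1 features sit at 60.9 to 159 in the shTRPS1 array and at 364 to 551 in the NC array, while HYAL2 and HAS3 lie above both lines on both arrays.

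A feature was called when it was above background on at least 1 array and its log2 difference was 1 or more in size (2-fold). By this rule 2 of the 8 features were called lower, both of HYAL1, and 0 were called higher. Of all features, 16783 were above background on at least 1 array, and 2.82% of these were called lower and 3.96% higher. Nothing is read from the members' count, since the same contrast chose them and both called features passed the filter through the NC array alone. With both arrays required above background, 0 member features were called, against 1.41% called lower of all 14010 such features. The call also hangs on the background level: with the 99th percentile of the olfactory receptor features, 474 in the shTRPS1 array and 562 in the NC array, 0 features were called, and with the 90th percentile, 253 in the shTRPS1 array and 268 in the NC array, 4 were called, the 3 of HYAL1 and that of CD44.

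Of the olfactory receptor features themselves, 3 of 60 were measured at least 2-fold lower and 1 at least 2-fold higher, and their log2 differences ran from -2.19 to 1.25. The measured differences of NM_153282 and NM_033159 lay inside the range of this background family, and that of NM_153285 lay below it, by a shTRPS1 value that was itself under background.

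**Figure D2:**
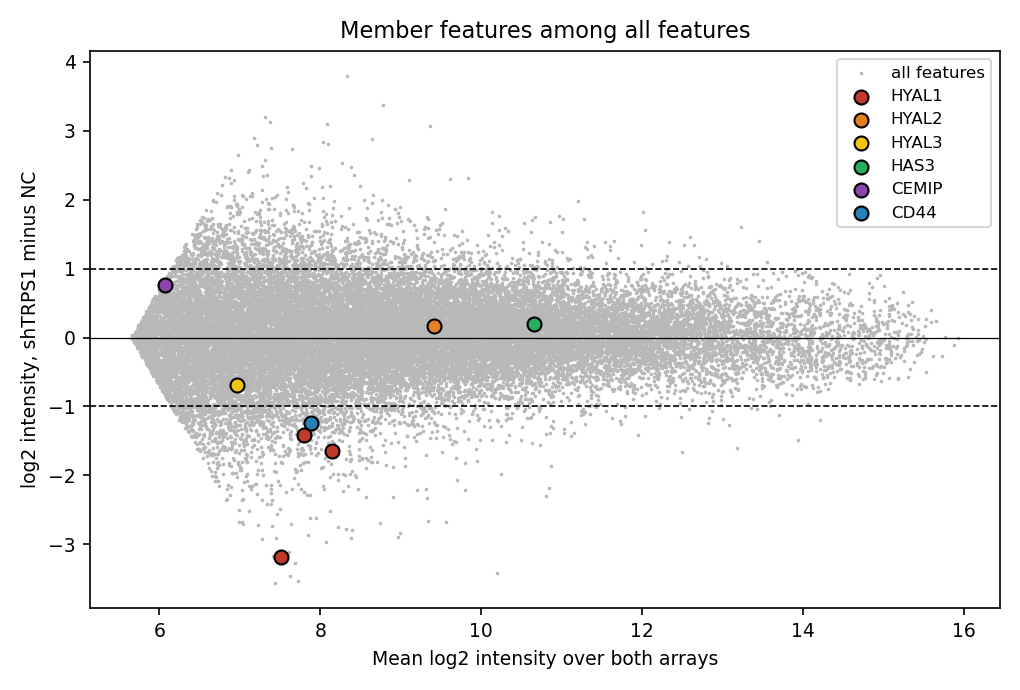
The log2 difference (shTRPS1 minus NC) of each feature against its mean log2 intensity over both arrays, with all 28973 features in grey and the 8 member features in colour; dashed lines mark differences of -1 and 1. HYAL1 and CD44 lie below the lower line in the dim part of the range where all features scatter widely, and HYAL2 and HAS3 lie close to 0.

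Some genes have several features, whose differences can be set side by side. For HYAL1 this is no check, since these same differences chose it and its features may share exons. Of 130 genes with at least 3 named features, 25 had every measured difference negative and 41 had every one positive. In HYAL1 and in SMOX, a polyamine oxidase named here after its values were seen, every feature was measured at least 2-fold lower, and in 0 genes was every feature at least 2-fold higher. That count takes no account of background. The measured log2 differences of the HYAL1 features spanned 1.77, against a median span of 0.56 over the 130 genes. All shTRPS1 values of HYAL1 lay under background, and the 130 genes were not filtered by background. Nothing is therefore read from the wider span. Of 519 genes with at least 2 features above background on an array, every such feature was at least 2-fold lower in 3 (HYAL1, SMOX and TNFRSF18) and at least 2-fold higher in 2 (ATF4 and MID1), genes other than HYAL1 again named after their values were seen. These counts use the contrast that chose HYAL1 and are a description.

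HYAL2, the cell surface hyaluronidase and next coding gene to HYAL1, was measured above background on both arrays. It read 722 in the shTRPS1 array and 643 in the NC array, a log2 difference of 0.17 or 12.4% higher. The median log2 difference of all features above background on both arrays was 0.04. HYAL3, a hyaluronidase with little known activity of its own, read 98.9 in the shTRPS1 array and 159 in the NC array. Both values are under background, so no fold is given and its direction is not established.

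The other genes of the locus were set beside HYAL1 by their order on the chromosome. Of the listed neighbours 15 were measured, 13 were above background on at least 1 array, and 0 were called in either direction. The median log2 difference was 0.22 over the 13. Over all 6949 genes above background 2.37% were called lower and 3.78% higher, with a median of 0.08. With shares this low, nothing is read from 0 calls among 13 genes. The next coding genes on either side of HYAL1 were NAA80, an actin N-acetyltransferase, and HYAL2. NAA80 read 813 in the shTRPS1 array and 961 in the NC array, a log2 difference of -0.24. NAA80 overlaps HYAL3 in the annotation, so the HYAL3 feature may share sequence with it. TUSC2, a mitochondrial protein gene beyond HYAL2, read 1486 in the shTRPS1 array and 1403 in the NC array. RASSF1, a Ras-association family gene, read 556 in the shTRPS1 array and 552 in the NC array. Among the neighbours above background, the largest absolute differences were those of RBM6, an RNA-binding protein, SEMA3F, a semaphorin, and LSMEM2. RBM6 had a log2 difference of 0.69, with 786 in the shTRPS1 array and 487 in the NC array. SEMA3F was at least 1.30-fold higher, and LSMEM2 had a log2 difference of -0.37.

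**Figure D3:**
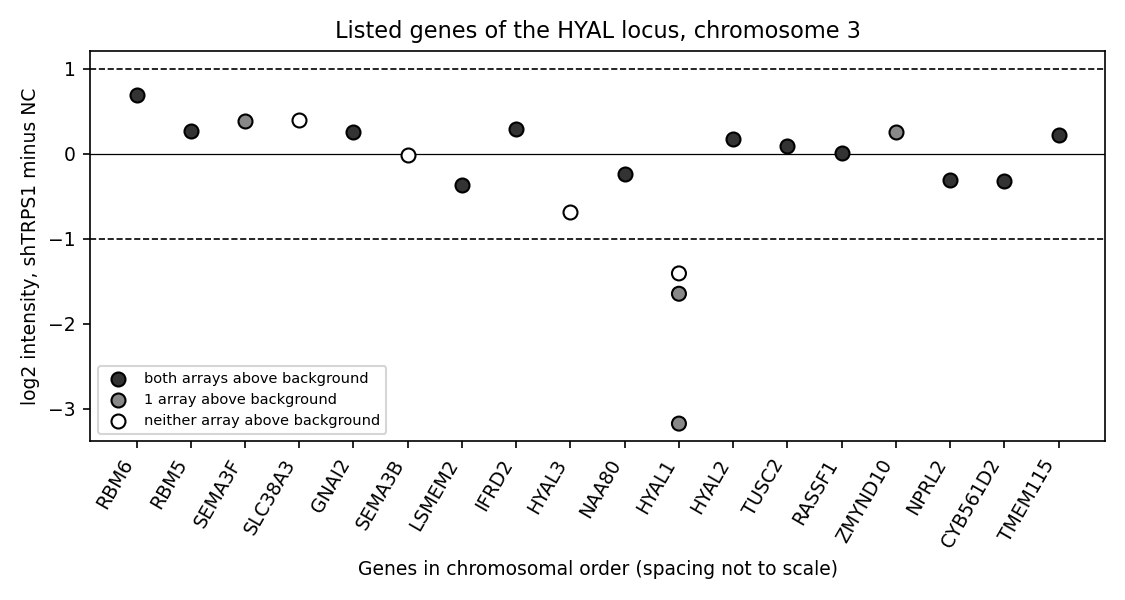
The log2 difference (shTRPS1 minus NC) of the measured listed genes around the HYAL cluster in their order on chromosome 3, spacing not to scale, with each HYAL1 feature as a point and fill showing on how many arrays the feature exceeded background. The 3 HYAL1 points lie between -3.18 and -1.41, below the dashed line at -1, and the other genes lie between -0.69 (HYAL3) and 0.69 (RBM6).

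HAS3, the synthase with a measured feature, was above background on both arrays. It read 1721 in the shTRPS1 array and 1509 in the NC array, a log2 difference of 0.19 or 14.1% higher. HAS3 and HYAL2 thus both differed by far less than 2-fold. CEMIP read 87.4 in the shTRPS1 array and 51.6 in the NC array, both under background and the second close to the lowest value in the table, so no direction is established.

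CD44, the receptor, read 154 in the shTRPS1 array and 364 in the NC array at its feature NM_000610. The measured log2 difference was -1.24, but the NC value was 0.917 times that array's background level and the shTRPS1 value 0.474 times its own, so CD44 was not called and no fold is given. Of 5 measured markers of basal or CD44-high breast epithelium all 5 were above background on both arrays, and 2 (KRT14 and KRT17) were called higher and 0 lower. The other 3 were not called, with log2 differences of 0.67 for VIM, -0.27 for KRT5 and -0.33 for ACTA2; their relation to CD44 was not tested. CD44 has many spliced transcripts, and which of them this feature detects is unknown here. Levels of the members were not ranked against each other, because probes of different transcripts differ in brightness for the same amount of RNA.

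Genes were also ranked by how near their pair of log2 values lay to that of HYAL1 (feature NM_153282, its brightest by mean log2 value). Members, genes of the pathway lists and genes named only as a locus or open reading frame were left out first. The nearest of the rest were MTNR1B, a melatonin receptor, TRPV4, a calcium-permeable channel, and SATB1, a chromatin organiser. Their distances on the log2 scale were 0.11, 0.16 and 0.20. MTNR1B read 172 in the shTRPS1 array and 514 in the NC array. TRPV4 read 166 in the shTRPS1 array and 451 in the NC array. SATB1 read 177 in the shTRPS1 array and 457 in the NC array. Each was above background in the NC array only, as that HYAL1 feature was. The likeness rests on 2 values a gene, 1 of them under background, from probes that differ in brightness, so it describes the values and says nothing of the RNA amounts.

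The wider pathway was described through 11 gene lists, with each gene represented by its feature of highest mean log2 value. Of 106 measured genes 73 were above background on at least 1 array, and 4 were called higher and 0 lower. Over all 6949 genes above background 3.78% were called higher and 2.37% lower. The median log2 difference was 0.17 over the 73 list genes and 0.08 over all 6949 genes. The listed genes were thus a mixed group with few calls.

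Enzymes that supply the sugar precursors of hyaluronan included 1 called gene. Of 11 measured supply genes 7 were above background, with 5 positive and 2 negative differences and a median of 0.26. GFPT1, which catalyses the first committed step of hexosamine synthesis, read 389 in the shTRPS1 array and 173 in the NC array and was called higher. Its shTRPS1 value did not exceed the NC background level, so no fold is given. HK1, a hexokinase, read 2026 in the shTRPS1 array and 1168 in the NC array (log2 difference 0.80, not called). GPI, glucose-6-phosphate isomerase, read 2361 in the shTRPS1 array and 3304 in the NC array (-0.48, not called). UAP1, which makes UDP-N-acetylglucosamine, read 451 in the shTRPS1 array and 465 in the NC array.

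Among lysosomal enzymes that break down hyaluronan fragments and other glycosaminoglycans 1 gene was called higher and 0 lower. Of 13 measured genes 9 were above background, 8 of these with a positive and 1 with a negative difference, with a median of 0.40. The negative difference was that of SGSH, a heparan sulfate sulfatase (-0.11). Of the 9, 6 were above background on both arrays, and the rest, all positive, passed the filter through the shTRPS1 array alone. Over all 6949 genes above background 43.1% had a negative difference, and nothing is read from the signs in this list. GALNS, a sulfatase of keratan and chondroitin sulfate, was the called gene: it read 618 in the shTRPS1 array and 234 in the NC array, at least 1.56-fold higher. GM2A, a lipid-binding lysosomal cofactor, was at least 1.14-fold higher and not called. GLB1, beta-galactosidase, read 2366 in the shTRPS1 array and 1501 in the NC array (log2 difference 0.66, not called). GUSB, beta-glucuronidase, which removes glucuronic acid from the end of hyaluronan fragments, had a log2 difference of 0.49, not called.

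Few genes of the hyaluronan-binding matrix were measurable. Of 9 measured 2 were above background. THBS1, thrombospondin, read 1806 in the shTRPS1 array and 728 in the NC array, 2.48-fold higher, and was called. C1QBP, a mitochondrial protein that also binds hyaluronan, read 4668 in the shTRPS1 array and 4806 in the NC array. Among 5 other measured receptors 2 were above background and 0 were called. HMMR, a hyaluronan receptor that also serves the mitotic spindle, read 440 in the shTRPS1 array and 307 in the NC array, at least 1.11-fold higher, and ICAM1, an adhesion molecule, had a log2 difference of 0.20. CEMIP2, a hyaluronidase of the cell surface related to CEMIP, read 196 in the shTRPS1 array and 199.7 in the NC array, both under background.

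Genes that make other glycosaminoglycans were evenly divided. Of 16 measured 10 were above background, 5 with a positive and 5 with a negative difference, a median of 0.06 and 0 calls. EXTL3, a glycosyltransferase that starts heparan sulfate chains, read 1016 in the shTRPS1 array and 1948 in the NC array. Its log2 difference was -0.94, just short of a call, and it was called lower after quantile normalization or loess correction. HS6ST1, a heparan sulfate sulfotransferase, and B3GAT3, which completes the linker of sulfated chains, had log2 differences of -0.46 and -0.44.

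Genes tied to CD44 showed no common direction. Of 7 measured genes of its cytoskeletal anchors and shedding proteases 4 were above background and 0 were called: NF2 (merlin) had a log2 difference of 0.46, EZR (ezrin) 0.31 and MSN (moesin) -0.40. Of 13 measured splicing regulators 12 were above background, 4 with a positive and 8 with a negative difference, a median of -0.09 and 0 calls. ESRP2, an epithelial splicing regulator known to act on CD44 variant exons, read 315 in the shTRPS1 array and 592 in the NC array, at least 1.82-fold lower and not called. U2AF2 and YBX1, general RNA-binding factors, had log2 differences of -0.62 and 0.61.

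Of 9 measured signalling partners of CD44 8 were above background, with a median of 0.31 and 0 calls. Of these 8, 5 were above background on both arrays. The rest, all with a positive difference, passed the filter through the shTRPS1 array alone, so the sign of the median is not read. SRC, a membrane-associated kinase, was at least 1.69-fold higher, and LRP6, a Wnt co-receptor, at least 1.15-fold higher. LRP5, the related co-receptor, read 597 in the shTRPS1 array and 1020.1 in the NC array, a log2 difference of -0.77. Around the CD44 gene 7 listed neighbours were measured and 6 were above background, all 6 with a positive difference and a median of 0.14. Over all 6949 genes above background 43.1% had a negative difference, and nothing is read from the signs of so few neighbours. FJX1, a secreted growth regulator, read 2279 in the shTRPS1 array and 938 in the NC array and was the 1 called, with a log2 difference of 1.28. ELF5, a luminal progenitor transcription factor, had a log2 difference of 0.84, and CAT, catalase, 0.21.

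**Figure D4:**
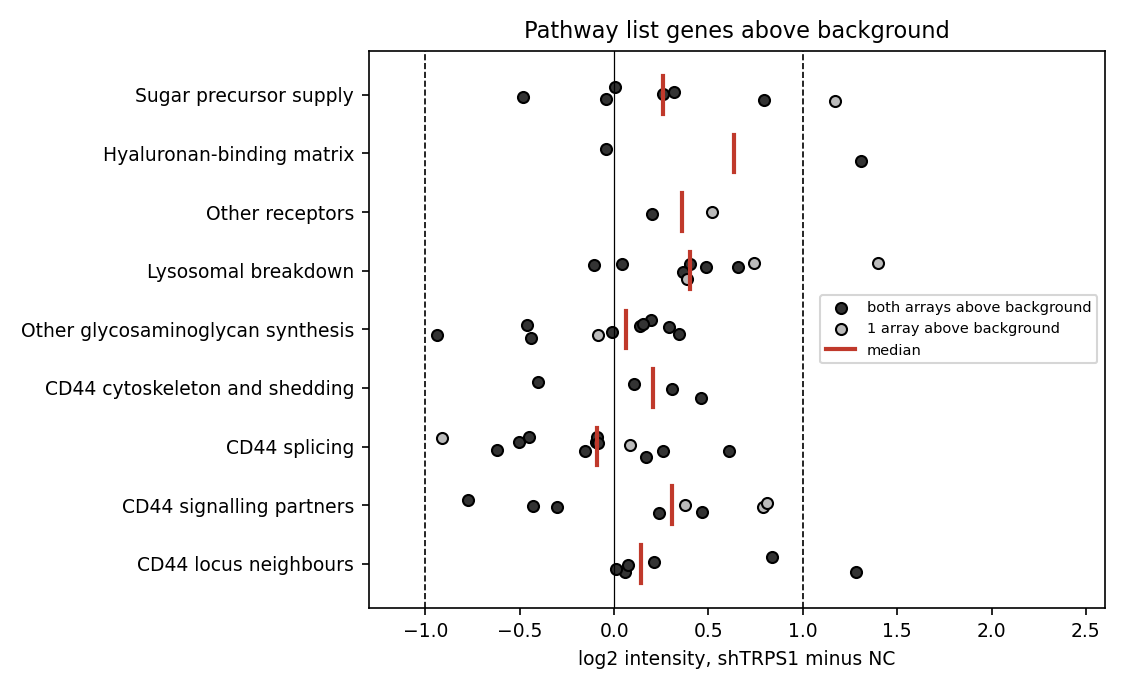
The log2 difference (shTRPS1 minus NC) of each gene above background on at least 1 array in 9 of the lists, with dark points for genes above background on both arrays, light points for genes above it on 1, and a red bar at the list median; vertical jitter has no meaning and dashed lines mark -1 and 1. The called genes GFPT1, THBS1, GALNS and FJX1 lie right of the line at 1, and on the deposited scale no point lies left of -1 (EXTL3, at -0.94, does so after quantile normalization or loess correction).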

How the data were processed

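The values were the signal intensities that the authors deposited for 2 arrays, on a linear scale. Per the submitters' processing notes they came from RMA, and per the labels' protocols from one-colour Cy3 NimbleGen arrays; no source used here gives the RMA steps or the genome build. No value was under 50 on either array. A second table with 8 sample columns whose names match no label was not used. Its name says that part of the genes were excluded from the sample tables. Dim transcripts may be among the missing ones, by a rule not stated.

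Log2 was taken of each intensity. Of 28973 features 12598 were named through RefSeq's GRCh38.p14 gene table, giving 11564 genes; clone and withdrawn accessions were not named. Named in the text were all member features, TRPS1, in each list the called genes and the 3 above background with the largest absolute difference, the 3 genes nearest to HYAL1, and NAA80, TUSC2, RASSF1, UAP1, SGSH, GUSB and CEMIP2, chosen after their values were seen for their role or position, besides markers. Members and lists were chosen with earlier results of these data known. The call rule was run on simulated data. Changes were planted only in bright features, so the run says nothing of dim features such as those of HYAL1. Analyses used pandas 2.3.3 and numpy 2.4.6 under Python 3.11.15, with statsmodels 0.14.6 for loess and matplotlib 3.10.9 for figures.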

Additional observations from a re-analysis of the deposited data

How the results depend on the processing

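Each member feature kept its sign and its side of the 2-fold rule under all 4 alternative scales (median-centred, quantile-normalized, loess with span 0.4, and log2 of intensity plus 50). Over these and the deposited scale, the log2 differences ran from -3.22 to -2.44 for HYAL1 feature NM_153285, -1.70 to -1.39 for NM_153282, -1.46 to -1.15 for NM_033159, -1.29 to -1.02 for CD44, -0.73 to -0.49 for HYAL3, 0.44 to 0.79 for CEMIP, 0.13 to 0.19 for HAS3 and 0.09 to 0.17 for HYAL2. The count of member features called, all lower, was 2, against 4 with background at the 90th percentile or with no background filter, and 0 with background at the 99th percentile or with both arrays required above background. Over all genes 428 were called (263 higher, 165 lower), against 1546 (958 and 588) at 1.5-fold, 87 (46 and 41) at 3-fold, 158 (81 and 77) with both arrays above background and 985 (545 and 440) with no filter. In the pathway lists 4 genes were called (4 higher, 0 lower), against 16 (12 and 4) at 1.5-fold, 0 at 3-fold, 2 (both higher) with both arrays above background and 8 with no filter, of which 2 were lower. The lower count was 1 with background at the 90th percentile, after quantile normalization, after loess and with the feature of median difference. No paired analysis was possible because each group has 1 array, and no array could be left out. The brightness of the HYAL1 and CD44 features, near or under background, limits what can be said of them.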

Other observations

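Among list genes under background on both arrays, STAB2, a scavenger receptor for hyaluronan, read 66.1 in the shTRPS1 array and 279 in the NC array. HAPLN1, a link protein of hyaluronan and proteoglycans, read 76.4 in the shTRPS1 array and 181 in the NC array. CSGALNACT2, which extends chondroitin sulfate chains, read 270.0 in the shTRPS1 array and 67.2 in the NC array. These genes were chosen after their values were seen, and no fold or direction is given for them.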
